A study of Mus musculus with 2 samples.

Results

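Ribosomal protein genes were described in mouse Flk1+Tie2+ cells with and without a pulse of the transcription factor Mesp1. They were all genes with a single-symbol probe set whose symbol starts with Rpl or Rps and a number, Rplp, or Mrpl or Mrps and a number, leaving out the Rps6k kinases. The symbols matched 126 of the 18193 genes named by single-symbol probe sets, 50 for the cytosolic ribosome and 76 for the mitochondrial one, and 261 of 34945 such probe sets. The members were chosen by name and not by a measured value.

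The dox sample came from A2lox.Mesp1 embryonic stem cells of 129/Ola background, which carry a doxycycline-inducible Mesp1 gene, differentiated as floating clusters of cells called embryoid bodies and given 250 ng/mL doxycycline (dox) from day 2, with day 4 as its end. The no dox sample came from the same line, also with the transgene, without dox. Flk1+Tie2+ cells, which the labels call endothelial, were sorted from both on day 5, and the RNA of each was measured on 1 Affymetrix 3' array. Neither condition has a replicate, so there is no test and no p-value, and each difference below compares 2 arrays and not the conditions in general. One inducible line was used, and a no dox sample does not control for the drug itself. Differences due to Mesp1 and to the drug therefore cannot be told apart, for the mitochondrial genes as for the others.

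The ribosome is built in the nucleolus from ribosomal RNA and a set of ribosomal proteins, of which the Rps proteins make up the small subunit, where codons are read, and the Rpl proteins the large subunit, where peptide bonds form. Mitochondria have ribosomes of their own that make a few membrane proteins of the respiratory chain. All of their proteins, most of them named Mrps or Mrpl, are encoded in the nucleus and imported. Cytosolic ribosomal proteins are among the most abundant products of growing cells, and inherited defects in several of them cause Diamond-Blackfan anaemia, a failure of red cell formation.

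Signals are linear and in arbitrary units. Each log2 difference is dox minus no dox of log2(signal + 16), each gene is represented by its brightest probe set, and a gene passed the signal filter when either signal reached the median of its array, 127 with dox and 112 without. Of the 126 members 123 passed, including all 76 mitochondrial and 47 of 50 cytosolic genes, and 1 of them, Rpl3l, passed through the no dox array alone. For all 11794 genes that passed, the median difference was 0.05. The genes of the sort, Kdr (Flk1) and Tek (Tie2), were close to even, with 10732.5 with dox and 10139.7 without for Kdr and 9277 with dox and 8799 without for Tek. Mesp1 had 10977 with dox and 2433 without, a log2 difference of 2.17. All 10 endothelial markers were past the filter on both arrays, with a summed signal of 58016 with dox and 56896 without. Eng alone was 2-fold or more higher, with 3922 with dox and 1626 without, and none was 2-fold or more lower. Of all genes past the filter 5.69% were higher and 2.06% lower by that size.

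Mitochondrial ribosomal protein genes were mostly a little lower with dox. By any amount 58 of 76 were lower and 18 higher (76.3% lower), while 44.4% of all genes past the filter were lower. The median log2 difference was -0.16, with the middle of the list between -0.29 and -0.02, beside the median of 0.05 over all genes. The median signal was 2163 with dox and 2464 without. None of the 76 was 2-fold or more higher or lower, beside 5.69% of all genes that were 2-fold higher and 2.06% that were 2-fold lower. At a smaller size, a log2 difference of 0.5 or more, none was higher and 2 were lower, beside 14.7% and 9.32% of all genes. In RNA from sorted populations, fewer cells of a type and less RNA per cell cannot be told apart.

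**Figure D1:**
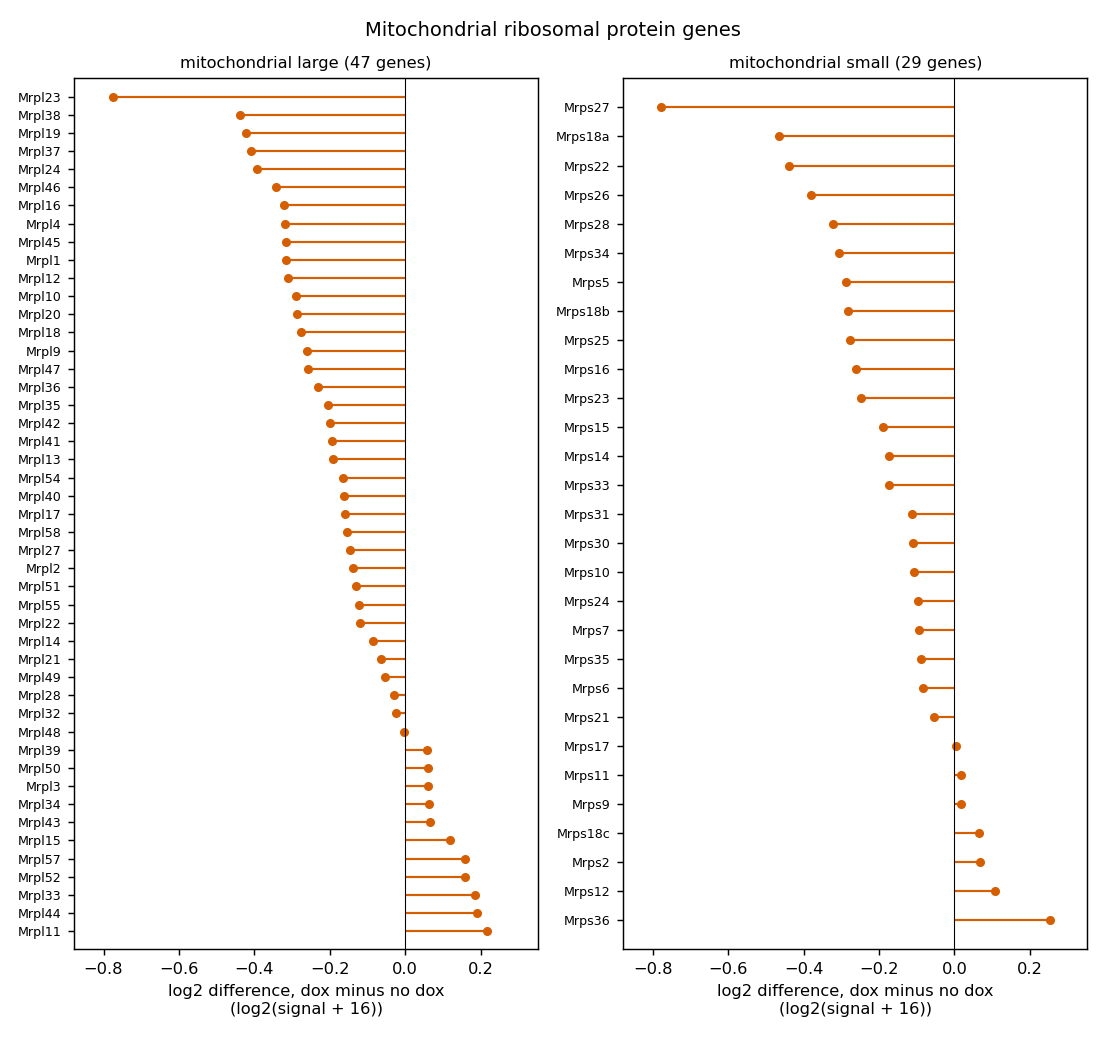
Log2 difference, dox minus no dox, of each of the 76 mitochondrial ribosomal protein genes (1 point each, brightest probe set, 1 array per condition). The 47 Mrpl genes are on the left and the 29 Mrps genes on the right, grouped by symbol. Most points lie left of 0, from -0.78 for Mrps27 and Mrpl23 to 0.25 for Mrps36.

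The scaling of the arrays sets how far the list lay from 0. Centring each array on its median moved the median of all genes by over 0.1, to -0.11, and quantile normalization moved it to -0.03. The mitochondrial median was then -0.32 and -0.22, with 94.7% and 81.6% of the genes lower, beside 62.8% and 53.2% of all genes under the same scalings. The count lower by 0.5 or more, 2 as deposited, was 10 after centring and 5 after quantile normalization, and none was higher. Of all genes 10.1% were higher and 15.4% lower by that size after centring, and 11.8% and 12.6% after quantile normalization. Relative to the median of all genes the list lay at -0.20 as deposited and -0.19 after quantile normalization. Centring shifts every difference alike, so it leaves this distance at -0.20 by construction.

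Mitochondrial genes were grouped by symbol alone, Mrps or Mrpl, and their place in 1 subunit or the other was not checked. Of the 29 Mrps genes 22 were lower (median -0.11), beside 44.4% of all genes. Mrps27, a pentatricopeptide repeat protein of the small subunit, had a signal of 996 with dox and 1720 without, a log2 difference of -0.78 or 1.72-fold lower. Mrps18a had 1404 with dox and 1943 without (-0.46), and Mrps22, a protein that bacterial ribosomes lack, had 1270 with dox and 1728 without (-0.44). Each of these genes has a single probe set, and each was lower with dox.

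The related Mrps18 genes, homologs of 1 bacterial protein, did not move as one. Mrps18b had a signal of 3096 with dox and 3766 without (-0.28), and Mrps18c had 5228 with dox and 4996 without (0.07), so Mrps18a and Mrps18b were lower and Mrps18c was slightly higher.

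At the other end of the Mrps genes, Mrps36 had 215.6 with dox and 178 without (0.25). Its product is now placed in the 2-oxoglutarate dehydrogenase complex rather than the ribosome, and without it and Rps19bp1 the mitochondrial median was unchanged at -0.16. Mrps12, a protein of the decoding site, had 1378 with dox and 1276 without (0.11). Mrps2 had 4422 with dox and 4216 without (0.07). These differences were smaller than the pooled SD of 0.25 between probe sets of 1 mitochondrial ribosomal protein gene, except for that of Mrps36, which just reached it. The SD covers 82 probe sets of 30 genes and measures probe effects, not cultures.

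Of the 47 Mrpl genes 36 were lower (median -0.16), beside 44.4% of all genes. Mrpl23, whose bacterial homolog lies at the exit of the peptide tunnel, had a signal of 1846 with dox and 3172 without (-0.78, 1.71-fold lower). Mrpl38 had 964 with dox and 1312 without (-0.44). Mrpl19 had 937 with dox and 1261 without (-0.42), and its other probe sets past the filter gave -0.72 and -0.18. All were lower with dox, Mrpl23 by the widest margin of the Mrpl genes.

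Mrpl12 and Mrpl45 were chosen after their values were seen. Mrpl12, the stalk protein that also binds the mitochondrial RNA polymerase, had 2569 with dox and 3188 without (-0.31). Mrpl45, which anchors the ribosome to the inner membrane, had 1535 with dox and 1916 without (-0.32). Both lay below the list median.

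The highest Mrpl genes differed by less than 1.2-fold. Mrpl11, a protein of the factor-binding region, had 5985 with dox and 5146 without (0.22), and its 3 probe sets past the filter ranged from 0.01 to 0.22. Mrpl44 had 3131 with dox and 2739 without (0.19), but its probe sets ranged from -0.44 to 0.19. Mrpl33 had 1308 with dox and 1149 without (0.19). Of these only Mrpl44 had probe sets on both sides of 0.

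Mitochondrial ribosomal proteins that kept the family number of a bacterial protein (Mrpl up to 36 and Mrps up to 21) were set beside those with later numbers, which are mostly additions of the mitochondrial ribosome. The medians were -0.15 for 43 genes of the first kind and -0.16 for 33 of the second. Among Mrps genes 12 of 13 with later numbers were lower (median -0.25) and 10 of 16 with bacterial numbers (median -0.09). Of all genes 44.4% were lower. Among Mrpl genes the order was the other way, with -0.14 over 20 genes with later numbers and -0.19 over 27 with bacterial ones. This split was chosen after the values were seen.

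Probe sets of 1 gene often disagreed about these small differences. Of 30 mitochondrial genes with at least 2 probe sets past the filter, 13 had all of them lower, 1 had all of them higher and 16 had both signs, and none had probe sets 1 or more apart on the log2 scale. For the 29 genes with a second brightest probe set past the filter, that probe set gave a median of -0.04 with 20 of 29 lower, and the brightest probe set of the same genes gave -0.10 with 20 of 29 lower. The second probe sets of all genes past the filter had a median of 0.02, with 47.1% lower. The widest span among mitochondrial genes was that of Mrpl15, whose 6 probe sets past the filter ranged from -0.38 to 0.46. The highest of them was dim, with 150 with dox and 105 without, and passed through the dox array alone. The next highest gave 0.12.

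**Figure D2:**
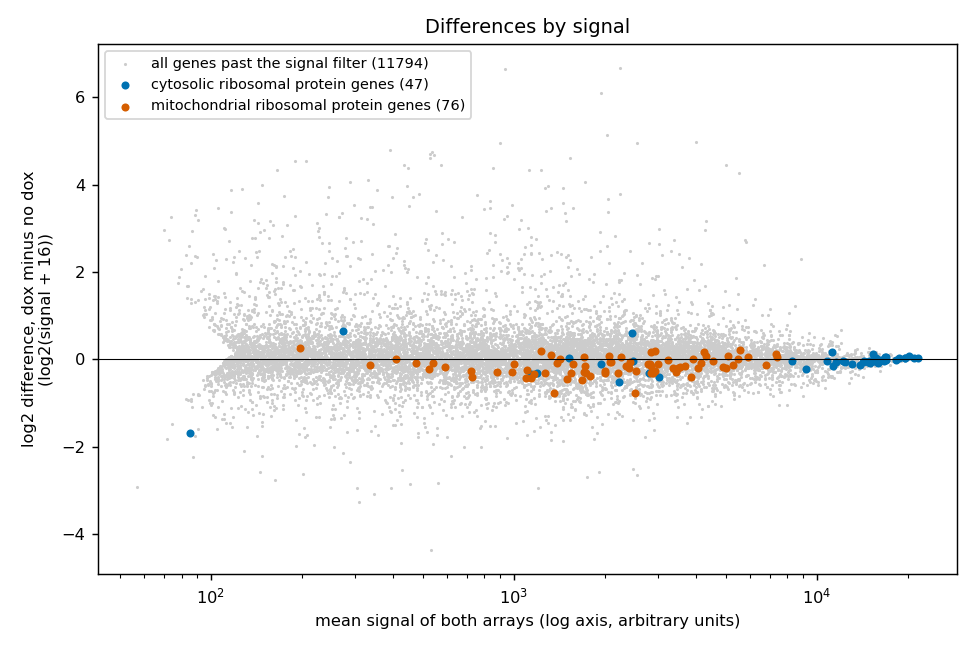
Log2 difference, dox minus no dox, against the mean signal of both arrays on a log axis, for all 11794 genes past the filter (grey), 47 cytosolic (blue) and 76 mitochondrial (orange) ribosomal protein genes. The cytosolic genes crowd at the bright end close to 0. The mitochondrial genes lie mostly below 0, with a median signal between those of all genes and of the cytosolic genes.

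Cytosolic ribosomal protein genes were nearly equal on the arrays, with a median log2 difference of -0.03 over 47 genes. The middle of the list lay between -0.09 and 0.02. By any amount 33 were lower and 14 higher (70.2% lower, beside 44.4% of all genes). After centring the arrays the median was -0.20, with 95.7% lower beside 62.8% of all genes, and after quantile normalization it was -0.02, which is 0.01 above the median of all genes instead of 0.08 below it as deposited. None of the 47 was 2-fold or more higher and 1, Rpl3l, was 2-fold or more lower, beside 5.69% and 2.06% of all genes. At a log2 difference of 0.5 or more 2 were higher and 2 lower, beside 14.7% and 9.32%, and after centring none was higher and 4 were lower, beside 10.1% and 15.4%.

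These genes sit near the top of the signal range. On each array 32 of the 47 reached the top 1% of probe sets (11142 with dox and 11473 without), while none of the mitochondrial genes did. All 188 genes in the top 1% of both arrays differed little, with a median size of 0.05 regardless of sign, and the 31 cytosolic ribosomal protein genes among them had a median size of 0.04. Being in the top 1% of both arrays itself limits how far a gene can differ. It leaves out genes bright on 1 array alone, such as Acta2, with 14719 with dox and 2999 without. With their signs, 60.1% of the 188 were lower (median -0.02) and 67.7% of the 31 (median -0.02). Whether probes were saturated was not tested.

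**Figure D3:**
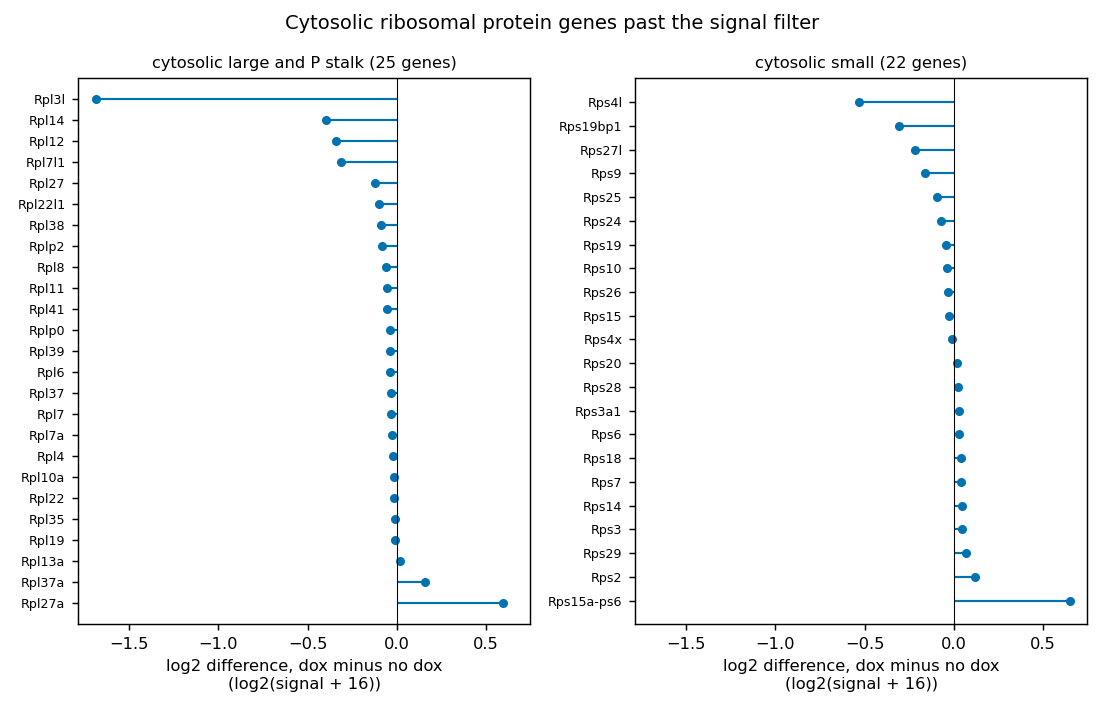
Log2 difference, dox minus no dox, of each of the 47 cytosolic ribosomal protein genes past the filter (1 point each, brightest probe set), with the large subunit and the P stalk on the left and the small subunit on the right. Most points lie on 0, and the paralogue Rpl3l at -1.69 and the pseudogene Rps15a-ps6 at 0.65 mark the ends.

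In the cytosolic large subunit 20 of 23 genes were lower (median -0.04), beside 44.4% of all genes. Apart from Rpl3l the lowest were Rpl14, with a signal of 2607 with dox and 3436 without (-0.40), and Rpl12, a protein at the base of the stalk, with 1000.2 with dox and 1273 without (-0.34). Rpl27a was the highest, with 2955 with dox and 1955 without (0.59, 1.51-fold), but its other probe set was dim, at 32.3 with dox and 29.4 without. Rpl37a had 11822 with dox and 10599 without (0.16), and Rpl13a had 19715 with dox and 19447 without (0.02). The P stalk recruits the factors that drive translation, and its proteins were close to even. Rplp0 had 14100.3 with dox and 14471 without (-0.04), and Rplp2 had 15484 with dox and 16428 without (-0.09).

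In the cytosolic small subunit 11 of 22 genes were lower and 11 higher (median 0.0032), beside 44.4% of all genes lower. Rps2 had a signal of 15913 with dox and 14675 without (0.12). Rps29 had 20606 with dox and 19683 without (0.07). The lowest and the highest members of this group were not core subunits. Rps4l, an autosomal copy of Rps4x, had 1820.4 with dox and 2634 without (-0.53), while Rps4x itself had 16790.5 with dox and 16943 without (-0.01). Rps19bp1, which binds Rps19 and is no ribosomal subunit, had 1062 with dox and 1316 without (-0.31). The pseudogene Rps15a-ps6 had 337 with dox and 209 without (0.65).

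Dimmer probe sets of the same cytosolic gene could give a larger difference than its bright ones. Rps20 had 2 bright probe sets, with 21024 and 18196 with dox and 20742 and 18000.3 without (0.02 each), and 2 dimmer ones, with 1374 and 257 with dox and 2396 and 476 without (-0.80 and -0.85). The 6 probe sets of Rps10 ran from -0.04 for the brightest, with 15281 with dox and 15670 without, to -0.78 for the dimmest, with 173 with dox and 309 without. These 2 genes were picked after their values were seen, as the cytosolic genes with the widest spans. Over all cytosolic probe sets past the filter the median was -0.04 for 60 with a mean signal of 10000 or more and -0.04 for 27 between 1000 and 10000. It was -0.13 for 9 below 1000, of which 6 were lower. Those of Rpl3l and Rps6 among the 9 passed the filter through the no dox array alone. Over all single-symbol probe sets past the filter the medians of these bands were -0.01, 0.03 and 0.05, from bright to dim. Of all those below 1000, 44.3% were lower.

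Of the 50 cytosolic symbols, 8 are no standard subunit: paralogues with an l or l1 ending, the pseudogene Rps15a-ps6 and the binding protein Rps19bp1. The 40 other cytosolic genes past the filter had a median of -0.03, with 27 lower, beside 44.4% of all genes. Rpl3l, a form of Rpl3 found in heart and skeletal muscle, had 32.0 with dox and 138 without (-1.69), and its dox signal lay below the array median, so it passed the filter only where it was high. Rpl7l1 had 2494 with dox and 3103 without (-0.31), although its 3 probe sets reached 0.0007, while Rpl7 had 16435 with dox and 16819 without (-0.03).

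Rps27l had 8551 with dox and 9937 without (-0.22), and all 3 of its probe sets were lower, the nearest to 0 at -0.16. Rpl22l1 had 12598 with dox and 13533 without (-0.10), beside 16074 with dox and 16243 without for Rpl22 (-0.02). Both paralogues were thus slightly lower on the dox array.

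The 3 cytosolic genes below the filter were Rpl39l, Rps16 and Rps27. Rpl39l, a form of Rpl39 known from testis, had 2.82 with dox and 1, the floor of the table, without, while Rpl39 had 8175 with dox and 8389 without (-0.04). The only single-symbol probe set of Rps27 had 101 with dox and 85.7 without, and that of Rps16 had 7.40 with dox and 9.03 without. Both symbols also stand on probe sets with several symbols, 1 for Rps27 and 2 for Rps16, which were left out. In all, 114 probe sets carry a ribosomal protein symbol beside others, mostly pseudogenes, and 33 ribosomal protein genes, 31 of them cytosolic, were named by such probe sets alone. With those whose other symbols were pseudogenes or unnamed loci added, 72 cytosolic genes had a median of -0.02 with 48 lower. Of all genes 44.4% were lower under this setting.

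**Figure D4:**
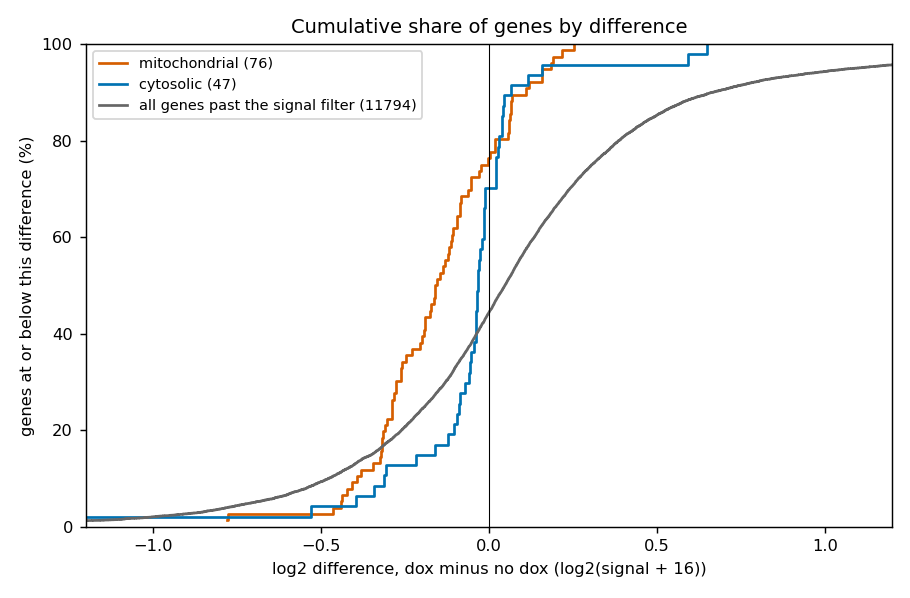
Share of genes (%) at or below each log2 difference, dox minus no dox, for 76 mitochondrial and 47 cytosolic ribosomal protein genes and all 11794 genes past the filter, with the axis drawn from -1.2 to 1.2. The cytosolic curve climbs steeply at 0, and the mitochondrial curve crosses 50% at -0.16.

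Promoters show what else the members share. RefSeq promoter windows of build GRCm38.p6, from 250 bases before to 50 after the annotated start, were found for 110 of 126 members (43 cytosolic and 67 mitochondrial). Cytosolic ribosomal protein messages are known for a pyrimidine tract at their first base, through which their translation is regulated. A run of 5 or more C or T that covers the annotated first base stood in 13 of 43 cytosolic genes (30.2%) and 4 of 67 mitochondrial genes (5.97%), beside 11.8% of 27025 genes with a promoter.

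The ETS motif CCGGAAG was found on either strand in 20 of 43 cytosolic (46.5%) and 25 of 67 mitochondrial genes (37.3%), beside 9.93% of all. The YY1 motif AAGATGGC was found in 4 cytosolic (9.30%) and 12 mitochondrial genes (17.9%), beside 3.19% of all. The E-box CACGTG, which Myc binds, was found in 4 cytosolic (9.30%) and 5 mitochondrial genes (7.46%), beside 8.09% of all. The TATA box TATAAA was found in 6 cytosolic (14.0%) and 5 mitochondrial genes (7.46%), beside 15.7% of all. Each search covered both strands, and hits of different motifs may overlap.

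The median differences of members with and without these letters are given side by side, without a test. Mitochondrial genes with the ETS motif had a median of -0.13 over 25 genes, against -0.15 over 42 without it. Those with the YY1 motif had -0.15 over 12 genes, against -0.14 over 55 without it. Those with the E-box had -0.23 over 5 genes, against -0.13 over 62 without it, and those with the pyrimidine run had -0.22 over 4 genes, against -0.13 over 63 without it. Cytosolic genes past the filter with the pyrimidine run had -0.04 over 12 genes, against -0.03 over 28 without it. The annotated start need not be the one used in these cells.

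The bases around the start, 40 before and 25 from the start on, are shown for cytosolic genes with and without the run and for the mitochondrial genes with the lowest values that have a promoter in the table. Capitals mark a pyrimidine run of 5 or more at the start, the ETS motif or the YY1 motif.
Rpl27a, chr7:109519155-109519219, + strand: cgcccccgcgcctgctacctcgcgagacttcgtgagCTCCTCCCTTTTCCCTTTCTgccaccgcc
Rps18, chr17:33955641-33955705, - strand: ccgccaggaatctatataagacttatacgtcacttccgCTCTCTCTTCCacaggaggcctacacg
Rpl14, chr9:120571477-120571541, + strand: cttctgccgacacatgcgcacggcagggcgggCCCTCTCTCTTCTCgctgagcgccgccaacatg
Rplp0, chr5:115559427-115559491, + strand: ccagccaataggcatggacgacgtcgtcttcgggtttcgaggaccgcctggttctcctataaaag
Mrps27, chr13:99344746-99344810, + strand: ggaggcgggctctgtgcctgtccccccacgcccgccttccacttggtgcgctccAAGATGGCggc
Mrpl23, chr7:142532992-142533056, + strand: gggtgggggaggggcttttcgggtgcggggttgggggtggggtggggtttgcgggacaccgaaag
Mrps18a, chr17:46110964-46111028, + strand: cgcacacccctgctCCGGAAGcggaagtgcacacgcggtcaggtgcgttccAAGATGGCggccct
Mrps22, chr9:98601655-98601719, - strand: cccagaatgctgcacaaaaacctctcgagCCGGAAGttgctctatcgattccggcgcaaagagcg

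The run is 20 bases long in Rpl27a, the highest core cytosolic gene, and 14 bases long in Rpl14, the lowest one. It is 11 bases long in Rps18, which had a signal of 21946 with dox and 21359 without (0.04). Rplp0 and Mrpl23 carry none of the marked features in the bases shown. The TATA box letters, which were not marked, lie after the annotated start of Rplp0. Its lack of a run therefore holds for that annotated start only.

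Genes that act with the ribosome were described from lists of known members. Of all genes past the filter 44.4% were lower by any amount, the share to set beside the counts of these lists. Ribosome biogenesis genes were also mostly lower, 35 of 39 past the filter, with a median of -0.17. None was 2-fold lower or higher, beside 2.06% and 5.69% of all genes. By 0.5 or more 3 were lower, beside 9.32% of all genes, and none was higher, beside 14.7%. Nob1, which trims the small subunit RNA, had 1651 with dox and 2564 without (-0.63). Ubtf, which opens the ribosomal RNA genes to RNA polymerase I, had 1163 with dox and 1755.5 without (-0.59). Sbds, which helps release the finished large subunit, had 1690.5 with dox and 1390.5 without (0.28), and Rrn3, a polymerase I initiation factor, had 1543 with dox and 1281 without (0.27).

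**Figure D5:**
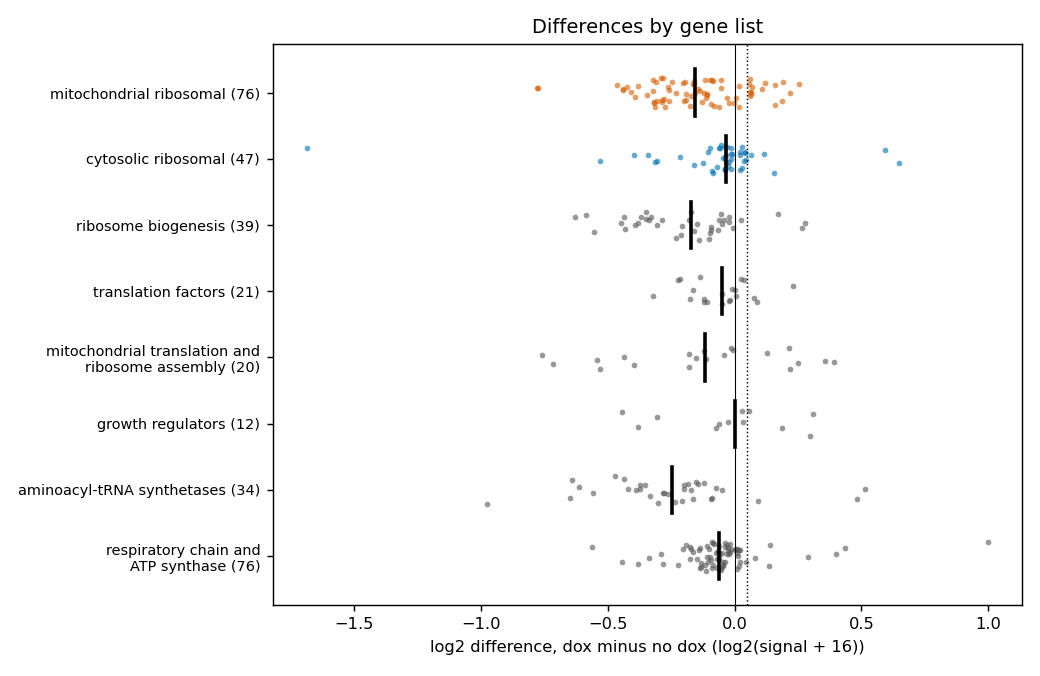
Log2 difference, dox minus no dox, of each gene past the filter (points) by gene list, with the list median (thick bar), 0 (solid line) and the median of all genes (dotted line). The medians of aminoacyl-tRNA synthetases (-0.25), ribosome biogenesis (-0.17) and mitochondrial ribosomal proteins (-0.16) lie left of that of cytosolic ribosomal proteins (-0.03).

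Mitochondrial translation and ribosome assembly factors went both ways, with 14 of 20 lower and a median of -0.12. Noa1, a GTPase of small-subunit assembly, had 376 with dox and 648 without (-0.76). Mrrf, the mitochondrial ribosome recycling factor, had 1306 with dox and 2158 without (-0.72). Mtif3, an initiation factor, had 435 with dox and 327 without (0.39), and Dhx30, an RNA helicase of ribosome assembly, had 4999 with dox and 3896 without (0.36). By a log2 difference of 0.5 or more 4 of the 20 were lower and none was higher, beside 9.32% and 14.7% of all genes.

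Cytosolic translation factors lay near 0, with 14 of 21 lower and a median of -0.05. The initiation factor subunit Eif3b had 4601 with dox and 5760 without (-0.32), and Eif4b, which stimulates the Eif4a helicase, had 4540.1 with dox and 5301 without (-0.22). The helicase Eif4a2 had 6631 with dox and 5649 without (0.23), and Eif4g2 had 17665 with dox and 16617 without (0.09). No factor reached a difference of 0.5, beside 9.32% of all genes lower and 14.7% higher by that size.

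The 7 ribosomal or ribosome-bound proteins whose symbols do not follow the rule were all lower, with a median of -0.10. Gadd45gip1, a mitochondrial large-subunit protein, had 196 with dox and 278 without (-0.47), and Oxa1l, the inner membrane insertase that binds the mitochondrial ribosome, had 3049 with dox and 3587 without (-0.23). Nearest to 0 were Ptcd3, with 1766 with dox and 1816 without (-0.04), and the small-subunit protein Rpsa, with 18698 with dox and 19227 without (-0.04). None reached a difference of 0.5, beside 9.32% of all genes lower and 14.7% higher by that size.

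Of 12 Diamond-Blackfan anaemia genes past the filter 9 were lower, with a median of -0.04. The red cell factor Gata1 had 153 with dox and 273 without (-0.78). The ribosomal protein chaperone Tsr2 had 1252 with dox and 1495 without (-0.25). Rps29 (0.07) and Rps7, with 15921.5 with dox and 15484 without (0.04), were the highest. The ribosomal protein genes of this list overlap the members.

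Growth regulators were even, with 6 of 12 lower and a median of 0.0008. Myc, a transcription factor that drives ribosome production, had 1057 with dox and 1445 without (-0.44), and its relative Mycn had 2404 with dox and 3136 without (-0.38). Mdm2, an E3 ubiquitin ligase, had 1785.5 with dox and 1436 without (0.31), and Rictor, a subunit of mTOR complex 2, had 1023 with dox and 830.5 without (0.30). The Myc genes were thus lower and Rictor higher on the dox array.

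The gene sets nearest in function gave these values side by side. Aminoacyl-tRNA synthetases, which charge tRNA for both ribosomes, had a median of -0.25 with 31 of 34 lower, and 5 were lower and 1 higher by 0.5 or more, beside 9.32% and 14.7% of all genes. Respiratory chain and ATP synthase genes, some of whose partners the mitochondrial ribosome makes, had a median of -0.06 with 58 of 76 lower. Of all genes 44.4% were lower. Differences between these sets and the ribosomal protein genes were not tested.

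Markers of other cell types differed between the arrays beside these small shifts. Of all genes past the filter 5.69% were 2-fold or more higher and 2.06% lower. The 10 smooth muscle and mesenchyme markers had a summed signal of 40883 with dox and 5254 without. On the dox array 9 of 10 were 2-fold or more higher, and 1, Cnn1, was at the floor without dox. The 8 cardiomyocyte markers summed to 7506 with dox and 1931 without, with 6 higher by 2-fold or more. Erythroid markers, 7 of 8 measured, summed to 3632 with dox and 7827 without, with 2 past the filter lower by 2-fold or more. Epor went the other way, with 565 with dox and 453 without (0.31). The 7 blood progenitor and myeloid markers summed to 8435 with dox and 14615 without, with 4 lower by 2-fold or more. Spi1 was even, with 177 with dox and 174 without (0.02), and Ptprc was dim on both, at 1.80 with dox and 15.9 without. The 5 pluripotency markers summed to 537 with dox and 421 without, and 1 of them was past the filter. The part of these cell types in the ribosomal protein values was not tested.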

How the data were processed

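Each of 2 samples was hybridised to 1 array, per the labels' protocols from 100 ng of total RNA. The deposited values are linear intensities of 45037 probe sets on both arrays. Their summary and scaling by the authors are not given in the sources used here, and they come with no detection calls or spike-in values. The lowest intensity is exactly 1 on both arrays (1102 probe sets with dox and 1165 without). No genome build is named for the arrays.

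Probe sets were named through the platform annotation: 34945 had 1 symbol, 932 had several and were not used as genes, and 9160 had none. The Entrez numbers of all 126 members were found in the RefSeq table of GRCm38.p6, which changed no symbol. Differences were taken on log2(intensity + 16), a pseudocount that understates the change of dim genes. Sizes of 2-fold (log2 difference of 1) and 0.5 on the log2 scale stood in for a test. The number of arrays, 1 per condition, limits every value.

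Members, lists and sizes were chosen with earlier results of these data known. Genes named are the members past a difference of 0.5, the 3 highest and 3 lowest members of each class, paralogue pairs, the genes of the sort with Mesp1, and the 2 highest and 2 lowest of each pathway list. Synthetase and respiratory chain genes, chosen by symbol pattern, are given as counts only. Others were chosen after their values were seen. Alternatives changed the pseudocount, filter, scaling, gene summary and members. Python 3.11.15, pandas 2.3.3 and numpy 2.4.6 were used, and the procedure was tested on simulated data.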

Additional observations from a re-analysis of the deposited data

How the results depend on the processing

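The mitochondrial median stayed below 0 under all 14 alternatives, from -0.318 to -0.0387, and the cytosolic one did too, from -0.195 to -0.0173. Dropping the filter, filtering on both arrays and removing paralogues and pseudogenes kept the same 76 mitochondrial genes. These settings left the mitochondrial median at -0.157 and say nothing about how firm it is. Relative to the median of all genes the mitochondrial list stayed between -0.207 and -0.0607, while the cytosolic list ran from -0.170 to 0.0082 and was above it only after quantile normalization. The values that moved most were the mitochondrial median after centring the arrays (-0.318), after quantile normalization (-0.219) and by the second brightest probe set (-0.0387, 29 genes), and the cytosolic median after centring (-0.195) and with plain _at probe sets alone (-0.123, 23 genes). The count of mitochondrial genes past 0.5 on the log2 scale, 2 of 76 as reported, was 10 of 76 after centring and 5 of 76 after quantile normalization. It was 4 of 59 with plain _at probe sets and 1 of 35 with a filter at the 90th percentile. Of all genes, 10.1% were higher and 15.4% lower by that size after centring, and 11.8% and 12.6% after quantile normalization. The shares were 15.4% and 9.87% with plain _at probe sets, and 10.6% and 8.04% at the 90th percentile. The cytosolic count, 4 of 47 as reported, was 7 of 23 with plain _at probe sets. It was 2 of 45 with a filter at the 75th percentile and 1 of 39 at the 90th percentile. Without paralogues and pseudogenes it was 1 of 40, and by the second brightest probe set 0 of 21. Of all genes, 13.0% were higher and 9.48% lower at the 75th percentile, and 15.4% and 10.1% by the second brightest probe set. As reported the shares were 14.7% and 9.32%. The cytosolic 2-fold count of 1 (Rpl3l) became 0 with a filter on both arrays, at the 75th or 90th percentile, without paralogues and by the second brightest probe set, settings that leave Rpl3l out. The mitochondrial 2-fold count stayed at 0 in all 14, beside 5.69% of all genes higher and 2.06% lower as reported. The second brightest probe set, the several-symbol probe sets and the removal of Rps19bp1 and Mrps36 were chosen after seeing the data. The causes were not tested. No paired analysis was possible because each condition has 1 array.

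Precision is limited by 1 array per condition. Most of these differences are smaller than the disagreement between probe sets of 1 gene, a pooled SD of 0.18 for cytosolic and 0.25 for mitochondrial genes, and bright cytosolic signals could not be checked for saturation. Detection of dim values could not be judged.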
